A study of Mus musculus with 5 samples.

Results

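Kdm2b (also called Fbxl10), Rnf2 (also called Ring1B), Eed and Ezh2 are the 4 genes whose mutation defines the mutant lines of a study of DNA methylation in mouse embryonic stem cells. Their loci were taken as fixed stretches of the mm9 genome: chr5:123315000-123445000 for Kdm2b, chr1:153300000-153355000 for Rnf2, chr7:97098000-97135000 for Eed and chr6:47475000-47550000 for Ezh2. These stretches held 467 of the 1099199 CpGs listed in any of 5 libraries: 241 in Kdm2b, 104 in Rnf2, 51 in Eed and 71 in Ezh2. Exon and intron positions in mm9 were not used here.

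The assay was reduced representation bisulfite sequencing, which cuts DNA with MspI at CCGG and reads the ends of short fragments after bisulfite has turned unmethylated cytosines into T. There was 1 library for each genotype, namely WT and the mutants Fbxl10 T/T, Ezh2 -/-, Eed -/- and Ring1B -/-. WT and Fbxl10 T/T carry the strain label C57BL/6J, grew on inactivated mouse embryonic fibroblasts in serum with leukemia inhibitory factor, and were harvested at passage 17, the fibroblasts having been depleted by plating. Ring1B -/-, Eed -/- and Ezh2 -/- grew in serum with the same factor and carry no strain, feeder or passage label. The labels do not say what T stands for, how any allele was made, or how many clones each line comes from. Strain, culture and genotype therefore cannot be told apart in the last 3 lines. Because each genotype is a single library, every difference below compares the reads of 2 libraries and has no replicate check, and the 4 comparisons share the 1 WT library.

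KDM2B is a lysine demethylase whose CXXC zinc finger binds unmethylated CpGs and brings a variant of Polycomb repressive complex 1 (PRC1) to CpG islands. RNF2 is a ubiquitin ligase of PRC1 and marks histone H2A. EZH2 is the methyltransferase of Polycomb repressive complex 2 (PRC2), which marks lysine 27 of histone H3, and EED is the PRC2 subunit that binds that mark. Kdm2b is transcribed from an upstream start and from a start inside the gene, and the shorter protein from the internal start lacks the demethylase domain but keeps the CXXC finger.

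The start sites were placed in mm9 by matching the RefSeq promoter letters (build GRCm38.p6) to the bases that the deposited sequence contexts spell out. All 4 genes run on the minus strand. The upstream Kdm2b start was placed at chr5:123439108 from 105 matched letters, the internal Kdm2b start at chr5:123350376 from 102, the Rnf2 start at chr1:153348121 from 113 and the Ezh2 start at chr6:47545029 from 34, all with 0 mismatches. The internal start lies 88732 bases downstream of the upstream one. Another RefSeq start of Kdm2b lies beside the internal one and is taken with it, and a further one could not be placed and is not covered by the comparison of its starts. The Eed start could not be placed either, and the 2 kb of its locus richest in listed CpGs, chr7:97128001-97130000, stand in for its promoter. The 250 bases before each placed start are shown, with every CG in capitals, because their letters fix or border the starts from which all distances below are counted. Many of the values below come from bases downstream of the starts, outside the printed stretches.
Kdm2b upstream, chr5:123439109-123439358, minus strand: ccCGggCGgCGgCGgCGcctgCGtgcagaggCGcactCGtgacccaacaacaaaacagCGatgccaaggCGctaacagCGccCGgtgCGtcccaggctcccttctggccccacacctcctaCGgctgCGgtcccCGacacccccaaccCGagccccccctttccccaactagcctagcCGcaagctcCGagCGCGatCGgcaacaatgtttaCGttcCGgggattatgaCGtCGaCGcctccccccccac
Kdm2b internal, chr5:123350377-123350626, minus strand: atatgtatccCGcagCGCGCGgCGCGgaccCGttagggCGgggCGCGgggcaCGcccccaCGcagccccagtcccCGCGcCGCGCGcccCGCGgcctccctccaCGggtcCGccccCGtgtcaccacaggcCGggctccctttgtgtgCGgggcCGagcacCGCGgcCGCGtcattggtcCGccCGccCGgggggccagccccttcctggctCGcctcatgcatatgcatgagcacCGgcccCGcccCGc
Rnf2, chr1:153348122-153348371, minus strand: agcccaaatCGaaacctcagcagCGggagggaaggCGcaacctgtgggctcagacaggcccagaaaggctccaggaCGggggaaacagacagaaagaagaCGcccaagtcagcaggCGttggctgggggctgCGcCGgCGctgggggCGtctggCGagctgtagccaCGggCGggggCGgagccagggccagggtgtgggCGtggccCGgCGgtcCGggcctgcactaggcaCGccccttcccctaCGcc
Ezh2, chr6:47545030-47545279, minus strand: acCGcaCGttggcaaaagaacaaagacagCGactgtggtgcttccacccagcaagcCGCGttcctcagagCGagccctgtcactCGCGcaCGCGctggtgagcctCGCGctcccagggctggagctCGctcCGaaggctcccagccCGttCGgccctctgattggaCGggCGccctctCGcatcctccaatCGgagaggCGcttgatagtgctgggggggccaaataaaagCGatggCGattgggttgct
These stretches hold 27, 36, 20 and 23 CGs. MspI cuts at CCGG, which occurs 3 times in each of the first 3 stretches and 0 times in that of Ezh2, so no fragment starts within the printed Ezh2 sequence and its values come from fragments on both sides.

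The WT and Fbxl10 T/T libraries were far deeper than the others. Reads summed over CpGs came to 43079673 in WT, 27338258 in Fbxl10 T/T and 1766681 to 1942248 in the other 3, and the median CpG had 33, 23 and 3 reads. A level is the percentage of reads at CpGs that show C. CpGs inside CCGG are left out of levels and windows unless named, since they read higher in every locus and library: in WT they stood at 17.8% to 48.5% in the 4 loci. Intervals are 95% Wilson intervals for a level and Newcombe intervals for a difference. They cover counting error only and are too narrow, because 1 read can cover several CpGs. At cytosines not followed by G, where unconverted cytosine and true non-CpG methylation cannot be told apart, 0.0912% to 0.925% of reads in the 4 loci showed C in WT, 0.171% to 0.835% in Fbxl10 T/T and 0% to 3.72% in the 3 shallow libraries. In WT and Fbxl10 T/T that background was highest in Kdm2b and lowest in Rnf2.

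Of the 4 promoters compared and the Eed stand-in, the upstream promoter of Kdm2b alone was called higher in Fbxl10 T/T. Within 1000 bases of the upstream start, 17 of 902 WT reads were methylated (1.88%, interval 1.18% to 2.998%) and 115 of 472 Fbxl10 T/T reads (24.4%, interval 20.7% to 28.4%), over the 24 CpGs read in both. The difference was 22.5 points (18.7 to 26.6), with an adjusted p of 4.09e-39 in Fisher's exact test over the 7855 promoters tested in this comparison. The call needs both 20 points or more and an adjusted p under 0.05, and by that rule 16.2% of all promoters tested were called higher and 0.306% lower. A higher promoter was thus common in this library, and that of Kdm2b lay just past the 20-point line. In the same region 0 of 34 reads were methylated in Ring1B -/-, which allows a level of up to 8.82% (here and below, the level that 3 methylated reads would give), 1 of 34 in Eed -/- (2.94%) and 1 of 20 in Ezh2 -/- (5.00%).

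The rise was not spread evenly over the promoter. It lay in adjoining MspI fragments 852 to 950 bases downstream of the start. The fragment at chr5:123438158-123438212 went from 0.985% (2 of 203 reads) in WT to 50.4% (57 of 113) in Fbxl10 T/T. Its neighbour at chr5:123438212-123438256 went from 2.21% (10 of 453) to 25.5% (49 of 192). A short fragment further in, at chr5:123437530-123437554, had 3.28% in WT (4 of 122 reads) and 22.1% in Fbxl10 T/T (19 of 86). Close to the start the levels stayed low in both: 0 of 60 against 0 of 16 reads at chr5:123439140-123439275, and 2.79% (5 of 179) against 6.12% (9 of 147) at chr5:123439275-123439355. Restricted to 500 bases on either side of the start, the difference shrank to 3.38 points (2.04% in WT, 5.42% in Fbxl10 T/T). The stretch that gained is shown with its CGs in capitals, as the tables spell it.
Kdm2b gained stretch, chr5:123438190-123438219, plus strand: CGagagaagcCGctgcagcaacCGgctcCG

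**Figure D1:**
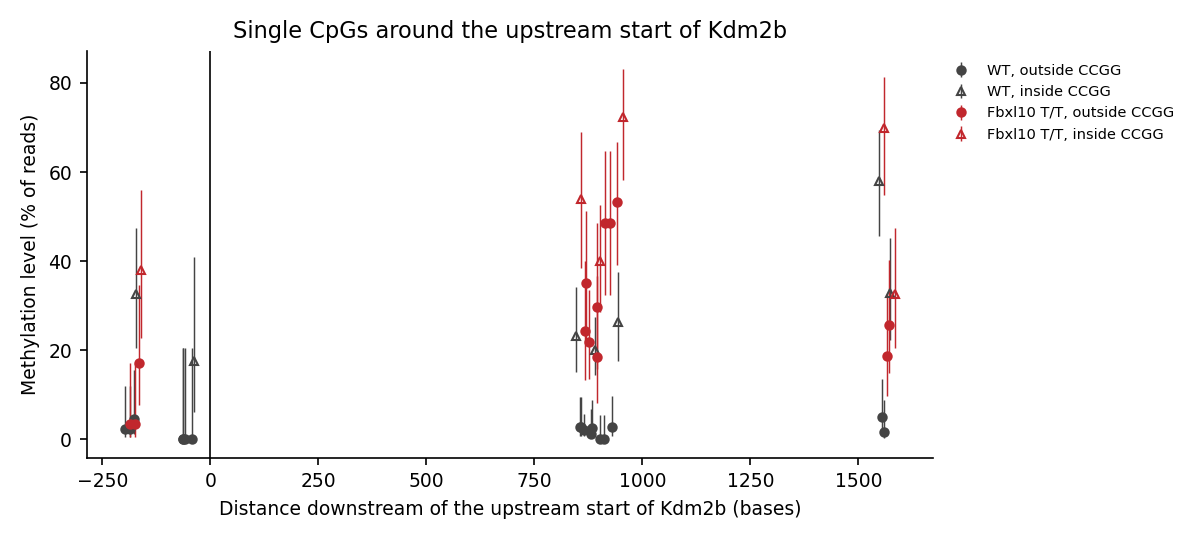
Methylation level of single CpGs (vertical axis, % of reads, with 95% Wilson intervals) against the distance downstream of the upstream Kdm2b start (bases), for CpGs with at least 15 WT reads and at least 10 reads in the library drawn. WT CpGs outside CCGG (filled grey circles) lie near the bottom throughout, while Fbxl10 T/T CpGs (filled red circles) reach 53.2% between 852 and 950 bases; CpGs inside CCGG are open triangles.

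Single CpGs were tested where both libraries had at least 10 reads and called where they differed by 25 points or more. In Fbxl10 T/T, 15 of the 127 CpGs tested in the Kdm2b locus were called higher and 2 lower, which is 11.8% and 1.57%. Across all CpGs of that comparison 13.9% were called higher and 6.61% lower, so the share of Kdm2b CpGs called higher was near that of the library as a whole. Of the 15, 7 lay within 2000 bases downstream of the upstream start, among 15 tested there. No CpG was called among the 81 tested in Rnf2, 36 in Eed and 52 in Ezh2, where 4, 0 and 1 had an unadjusted p under 0.05 in Fisher's exact test.

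The 3 largest rises in Kdm2b were at chr5:123402583, chr5:123402586 and chr5:123402580. The first stood at 13.3% in WT (6 of 45 reads) and 88.2% in Fbxl10 T/T (15 of 17), a difference of 74.9 points (48.9 to 85.9) with an adjusted p of 9.1e-07 in Fisher's exact test. The second went from 13.3% (6 of 45) to 70.6% (12 of 17). The third, inside CCGG, went from 31.1% (14 of 45) to 88.2% (15 of 17). These 3 CpGs belong to 1 short fragment, 36506 to 36528 bases downstream of the upstream start, so the same reads carry all 3 values. At chr5:123402602, inside CCGG at the other end of that fragment, the level did not rise. It stood at 8.89% in WT (4 of 45 reads) and 5.88% in Fbxl10 T/T (1 of 17). In Ring1B -/-, Eed -/- and Ezh2 -/- that fragment had 0 of 4 methylated reads each.

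The only 2 CpGs called lower in Fbxl10 T/T in any of the 4 loci were also in Kdm2b. At chr5:123349631, downstream of the internal start and within 1000 bases of it, 13 of 47 WT reads were methylated (27.7%) and 0 of 54 Fbxl10 T/T reads. The adjusted p was 1.52e-04 in Fisher's exact test. At chr5:123398302, 39 of 51 WT reads were methylated (76.5%) and 11 of 25 Fbxl10 T/T reads (44.0%), with an adjusted p of 0.0415. The second call is within 0.01 of the threshold.

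The internal promoter of Kdm2b stayed low in all 5 libraries. It stood at 2.64% in WT (72 of 2728 reads) and 1.92% in Fbxl10 T/T (33 of 1721), a difference of -0.72 points (-1.59 to 0.21). One read was methylated in each of the other 3: of 89 in Ring1B -/- (1.12%), of 71 in Eed -/- (1.41%) and of 57 in Ezh2 -/- (1.75%). Of the starts of this gene compared here, then, the upstream one gained methylation beside it in Fbxl10 T/T and the internal one did not; whether the difference between these changes exceeds the spread between cultures was not tested, as there is 1 library each.

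**Figure D2:**
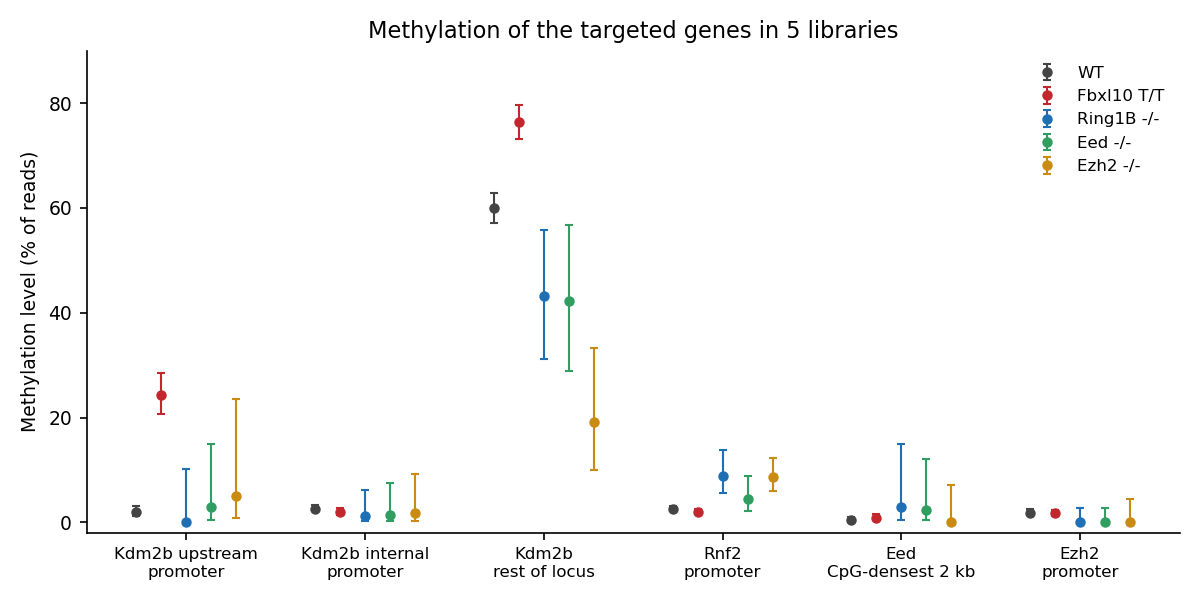
Methylation level (vertical axis, % of reads at CpGs outside CCGG, all CpGs listed in the library, with 95% Wilson intervals) of each promoter region and of the rest of the Kdm2b locus in the 5 libraries. Fbxl10 T/T stands apart from WT at the upstream Kdm2b promoter (24.4%) and in the rest of the Kdm2b locus (76.5%), and the 3 shallow libraries carry wide intervals.

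Away from its promoters the Kdm2b locus was methylated in WT. Over the 29 CpGs read in both libraries the level was 59.7% in WT (620 of 1039 reads) and 76.7% in Fbxl10 T/T (503 of 656), a difference of 17.0 points (12.5 to 21.3). The Polycomb mutants moved the other way on far fewer reads. Ring1B -/- stood at 43.1% (25 of 58) where WT had 58.9%, a difference of -15.8 points (-28.1 to -2.60). Eed -/- stood at 42.2% (19 of 45) where WT had 56.8%, a difference of -14.6 points (-28.2 to 0.27). Ezh2 -/- stood at 19.05% (8 of 42 reads) where WT had 55.6%, a difference of -36.6 points (-46.3 to -21.9). The intervals of Fbxl10 T/T, Ring1B -/- and Ezh2 -/- excluded 0 and that of Eed -/- did not. No such level is given here for methylated stretches elsewhere in these libraries, so whether the differences are particular to Kdm2b was not tested. Over the alternative settings the difference kept its sign and ran from 12.6 to 17.7 points in Fbxl10 T/T, -8.52 to -20.9 in Ring1B -/-, -5.98 to -24.2 in Eed -/- and -9.71 to -50.3 in Ezh2 -/-. With CpGs inside CCGG kept it was -23.8 in Ezh2 -/-, and with at least 5 reads per CpG it was -24.2 in Eed -/- and -50.3 in Ezh2 -/-. The smallest differences in the 3 Polycomb mutants came from counting only 500 bases on either side of a start as promoter, which adds CpGs of the islands to the rest.

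Windows of 1000 bases on a fixed grid were tested where at least 5 CpGs and at least 30 reads in each library were at hand, and called as promoters were. In Fbxl10 T/T, 2 of the 12 windows tested in the 4 loci were called higher, both in Kdm2b, and 0 lower, where 4 had an unadjusted p under 0.05. Over all 20072 windows of that comparison 25.5% were called higher and 2.66% lower, so 2 of 12 is not above the library's own share. The window chr5:123438001-123439000, which holds the gained stretch, went from 1.83% (12 of 656 reads) to 34.8% (106 of 305), an adjusted p of 1.29e-44 in Fisher's exact test. The window chr5:123338001-123339000, about 100 kb into the gene and past the internal start, went from 68.2% (202 of 296) to 93.0% (174 of 187), an adjusted p of 8.49e-11. The window chr5:123330001-123331000 rose by 17.6 points, from 70.1% (216 of 308) to 87.7% (178 of 203), which is short of the 20-point line, with an adjusted p of 9.44e-06. The call at chr5:123338001-123339000 rests on 5 CpGs, and when those within 5 bases of CCGG were left out it could no longer be tested.

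In the distal window the CpGs called higher were chr5:123338678, chr5:123338716 and chr5:123338759, and 30 bases between the last 2 of these are shown. They hold the CpG chr5:123338747, the one read in the fragment described next.
Kdm2b distal stretch, chr5:123338719-123338748, plus strand: tgaggcCGggcccaacttgcccttaggcCG
At chr5:123338716, 29 of 51 WT reads were methylated (56.9%) and 27 of 28 Fbxl10 T/T reads (96.4%). In the fragment at chr5:123338725-123338759 the Polycomb mutants had 5 of 12 methylated reads in Ring1B -/-, 2 of 5 in Eed -/- and 2 of 11 in Ezh2 -/-, where WT had 68.3% (84 of 123) and Fbxl10 T/T 86.0% (49 of 57). The Ezh2 -/- value, at the CpG chr5:123338747, missed the threshold with an adjusted p of 0.0649 in Fisher's exact test.

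**Figure D3:**
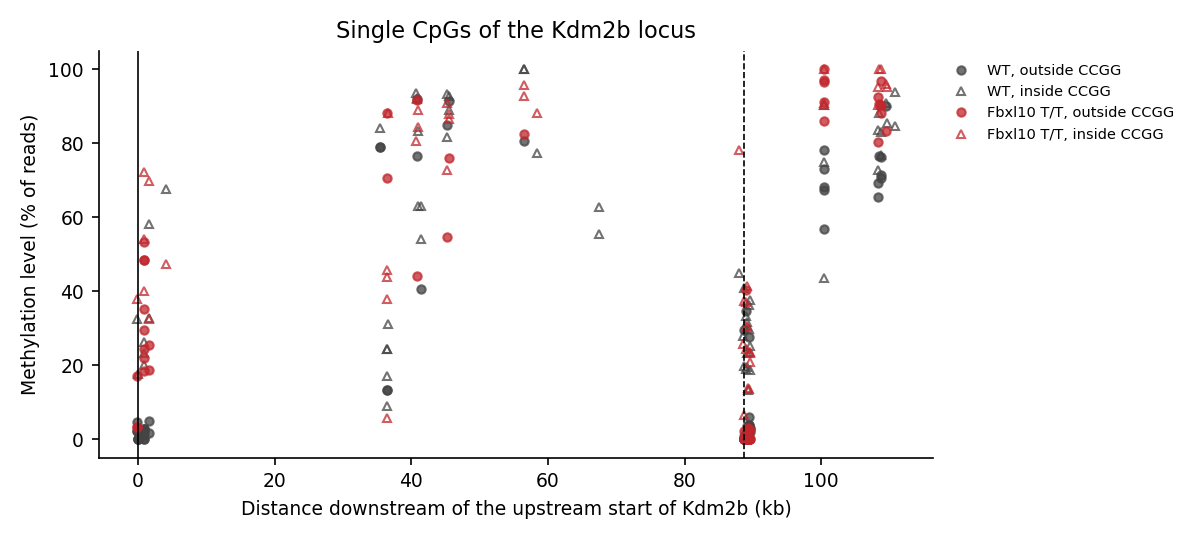
Methylation level (vertical axis, % of reads) of single CpGs along the Kdm2b locus against the distance downstream of the upstream start (kb) in WT (grey) and Fbxl10 T/T (red), for CpGs with at least 15 WT reads and at least 10 reads in the library drawn; the solid line is the upstream start and the dashed line the internal start. Levels are low at both starts and mostly high between and beyond them in WT, and red points lie above grey ones just past the upstream start and beyond 100 kb.

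In Ring1B -/-, Eed -/- and Ezh2 -/- no window of the 4 loci was called, of 5, 6 and 4 tested, and no single CpG, of 15, 15 and 28. An unadjusted p under 0.05 in Fisher's exact test was reached by 1, 0 and 1 windows and by 0, 0 and 3 single CpGs. Across all windows 1.3% were called higher and 0.554% lower in Ring1B -/-, 0.352% and 0.671% in Eed -/- and 0.211% and 0.787% in Ezh2 -/-. For single CpGs the shares were 1.14% and 1.28%, 0.504% and 0.709%, and 0.5% and 1.31%. With so few members tested against shares this small, a count of 0 says little about the 4 genes.

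The Rnf2 promoter was unmethylated or nearly so in WT and Fbxl10 T/T. It stood at 2.57% in WT (118 of 4585 reads) and 2.04% in Fbxl10 T/T (62 of 3045), a difference of -0.54 points (-1.21 to 0.17). In Ring1B -/-, where Rnf2 is itself the mutated gene, 16 of 181 reads were methylated (8.84%) where WT had 2.53% at the same CpGs, a difference of 6.31 points (2.94 to 11.4) with an adjusted p of 8.61e-04 in Fisher's exact test over promoters. Ezh2 -/- had 26 of 303 (8.58%) against 2.79%, a difference of 5.79 points (3.06 to 9.52) with an adjusted p of 2.10e-04. Eed -/- had 7 of 160 (4.38%) against 2.70%, with an adjusted p of 0.529. The Ring1B -/- and Ezh2 -/- differences passed the p threshold but not the 20-point line, so neither was called. In the window chr1:153347001-153348000, which holds most of these reads, the Ezh2 -/- difference of 5.74 points (adjusted p of 1.73e-04 in Fisher's exact test) fell to 3.15 points with an adjusted p of 0.105 without CpGs within 5 bases of CCGG, and the other alternatives gave adjusted p values of 1.44e-04 to 0.0411. In Ring1B -/- the same window kept an adjusted p of 1.94e-03 to 0.0259 over its alternatives. By promoter, in those comparisons 0.549% and 0.135% of promoters were called higher and 0.133% and 0.251% lower. Those calls need the 20 points as well, and the share of promoters passing the p threshold alone was not counted. The median difference over all promoters was 0.64 points in Ring1B -/- and 0.03 in Ezh2 -/-.

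Much of that methylation came from 1 MspI fragment of 31 bases, chr1:153347653-153347684, whose middle lies 453 bases downstream of the start. It stood at 8.72% in WT (56 of 642 reads), 7.76% in Fbxl10 T/T (34 of 438), 15.9% in Ring1B -/- (10 of 63), 21.4% in Eed -/- (6 of 28) and 21.9% in Ezh2 -/- (23 of 105). Without it the Ezh2 -/- difference was 0.12 points (1.39% in WT, 1.52% in Ezh2 -/-), the Eed -/- difference -0.44 points and the Ring1B -/- difference 3.88 points (1.20% in WT, 5.08% in Ring1B -/-). The Ezh2 -/- difference of the promoter thus rests on that fragment. In the 3 shallow libraries the non-CpG level of the Rnf2 locus was 3.72% (11 of 296 reads) in Ring1B -/-, 0% (0 of 317) in Eed -/- and 0.451% (2 of 443) in Ezh2 -/-, against 0.0912% in WT. Over the whole library the non-CpG level was 2.62% in Ring1B -/-, 2.83% in Eed -/-, 2.10% in Ezh2 -/- and 1.02% in WT, and the first lies within the interval of the Rnf2 value in Ring1B -/- (2.09% to 6.53%). The part of that background in the promoter levels was not tested.

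**Figure D4:**
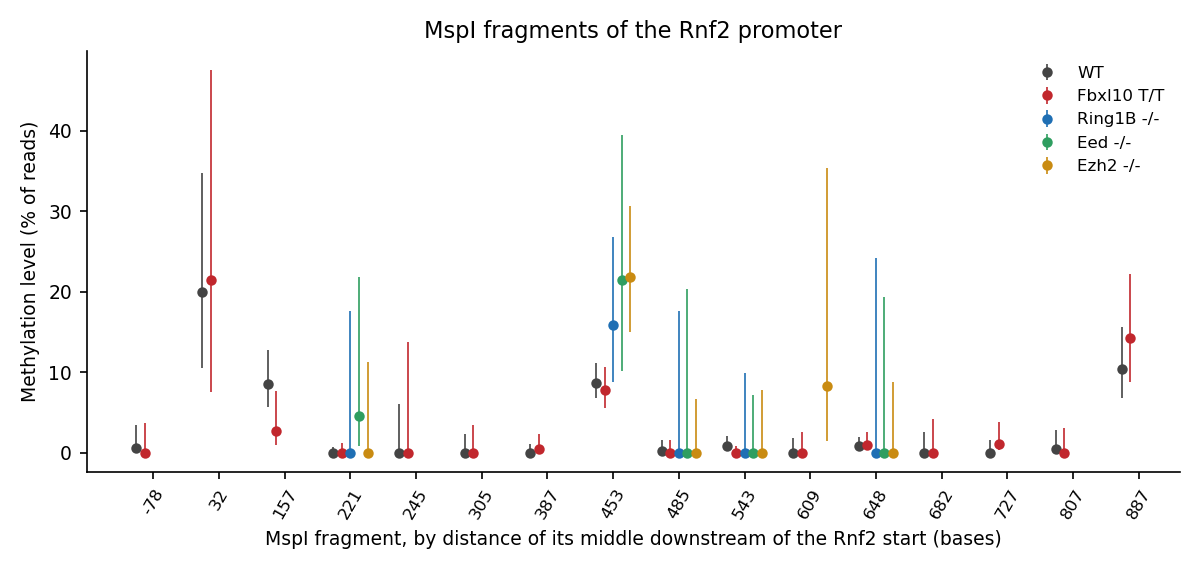
Methylation level (vertical axis, % of reads at CpGs outside CCGG, with 95% Wilson intervals) of each MspI fragment of the Rnf2 promoter with at least 30 WT reads, ordered by the distance of its middle downstream of the start (bases), in each library with at least 10 reads there. The fragment at 453 bases stands at 8.72% in WT and 21.9% in Ezh2 -/-, while most others lie near 0%.

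The Ezh2 promoter and the Eed island stayed low in all 5 libraries. The Ezh2 promoter stood at 1.86% in WT (43 of 2307 reads) and 1.72% in Fbxl10 T/T (37 of 2146), a difference of -0.14 points (-0.93 to 0.66). No read was methylated in Ring1B -/- (0 of 140), Eed -/- (0 of 137) or Ezh2 -/- itself (0 of 83), which allows levels of up to 2.14%, 2.19% and 3.61%. The Eed island stood at 0.479% in WT (8 of 1670 reads) and 0.864% in Fbxl10 T/T (9 of 1042), a difference of 0.38 points (-0.23 to 1.19). It had 1 methylated read of 34 in Ring1B -/-, 1 of 43 in Eed -/- and 0 of 50 in Ezh2 -/-, the last allowing up to 6.00%. The differences from WT of 2.72 points in Ring1B -/- (0.23 to 14.7) and 2.11 points in Eed -/- (0.11 to 11.8) have intervals that exclude 0, but 1 methylated read decides each. In WT the loci of Rnf2, Eed and Ezh2 had no listed CpG outside CCGG beyond these regions, so nothing is known here of the bodies of those genes.

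The depth of reads was compared with WT as a check on the labels, as far as reads at CpGs can give one: a homozygous deletion of a stretch with MspI fragments would leave no reads there, while a point change, or a deletion between such fragments, would go unseen. Each library's share of reads in a locus was divided by that of WT. In the line's own gene the ratio was 0.926 (Kdm2b in Fbxl10 T/T), 0.884 (Rnf2 in Ring1B -/-), 0.649 (Eed in Eed -/-) and 0.931 (Ezh2 in Ezh2 -/-). For Kdm2b, Rnf2 and Eed, ratios as low or lower occurred in lines where the gene is not the mutated one. Eed stood at 0.504 in Ring1B -/-, Rnf2 at 0.780 in Eed -/-, and Kdm2b at 0.755 in Eed -/- and 0.771 in Ezh2 -/-. Ezh2 was lowest in its own line, against 1.46 in Fbxl10 T/T, 1.47 in Ring1B -/- and 1.42 in Eed -/-. Within the reads of chromosome 6 alone, given in the next paragraph, its own line was not the lowest. No CpG with at least 100 WT reads lacked reads in Fbxl10 T/T (0 of 16 in Kdm2b), Eed -/- (0 of 7 in Eed) or Ezh2 -/- (0 of 13 in Ezh2), and 2 of 19 did in Ring1B -/- (Rnf2), where Eed -/- also lacked 2 of 19 and 4.40% of all such CpGs in Ring1B -/- had none. The labels of the Polycomb mutants were thus not checked by these reads in either direction.

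The Ezh2 locus was deeper in Fbxl10 T/T, at 1.46 times WT, and both of its windows lay above the central 95% of the ratios of windows of like WT depth. Chromosome 6 as a whole stood at 1.36 times WT in that library and at 1.34 times in Eed -/-. Within the reads of chromosome 6 alone the Ezh2 ratio was 1.08 in Fbxl10 T/T, 1.06 in Eed -/-, 1.52 in Ring1B -/- and 1.098 in Ezh2 -/-.

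The Kdm2b locus in Fbxl10 T/T held isolated stretches almost without reads. Among its 140 CpGs with at least 15 WT reads, 10 had under 0.2 of the WT depth after scaling to library size, which is 7.14%, against 0.508% of the 648792 such CpGs of the whole library. The other loci had none: 0 of 78 in Rnf2, 0 of 34 in Eed and 0 of 52 in Ezh2. The 10 fell into 4 separate stretches. At chr5:123397679, chr5:123397704 and chr5:123397736, WT had 27, 27 and 59 reads and Fbxl10 T/T 0, 0 and 1. At chr5:123403674, chr5:123403678 and chr5:123403693, WT had 19 reads each and Fbxl10 T/T 0. At chr5:123371574 and chr5:123371604 the reads were 35 and 65 in WT against 2 and 3, and at chr5:123328268 and chr5:123328367 they were 16 and 26 against 1 and 2. Of these 10 CpGs 7 lie inside CCGG, the MspI site itself. In the windows chr5:123371001-123372000 and chr5:123397001-123398000 WT had 102 and 113 reads and Fbxl10 T/T 5 and 1. Ring1B -/- and Eed -/- had 0 reads in both windows, and Ezh2 -/- had 8 and 2. In these shallow libraries the range of ratios of windows of like WT depth started at 0, so a count of 0 decides nothing. Whether the low depth is particular to Fbxl10 T/T was therefore not tested. One of the stretches is shown.
Kdm2b low-depth stretch, chr5:123371572-123371597, plus strand: gcCGggcagttggtggtgcacacctt

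The other 130 CpGs of the locus, many of them between these stretches, had 0.420 to 2.24 times the WT depth, so the low depth lay in patches and not over 1 continuous piece. Of 4545 consecutive bins of the same length (130000 bases) with at least 50 such CpGs, 7 (0.154%) had 4 or more separate stretches of this kind and 3709 had none. These shares are a description, with no test. The bins were matched to the Kdm2b locus in length and not in the number of such CpGs, of which the locus held 140.

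**Figure D5:**
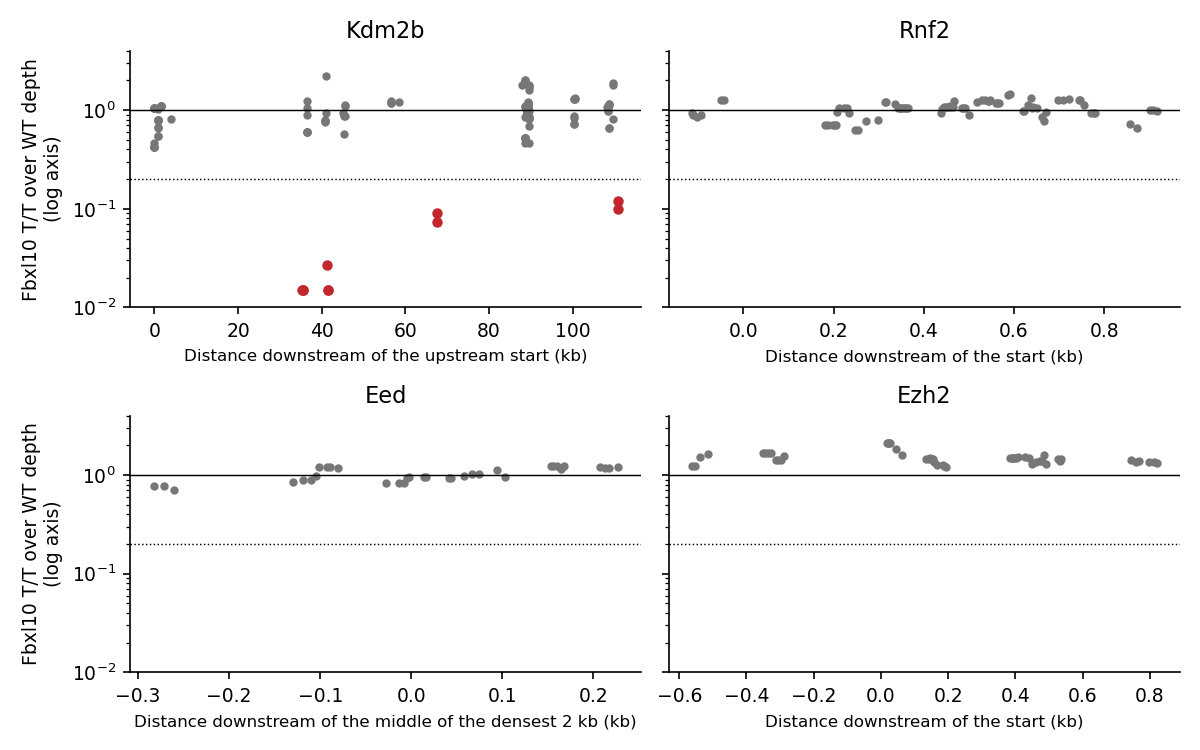
Depth of single CpGs in Fbxl10 T/T over WT (vertical log axis, each scaled to the library's reads at CpGs), for CpGs with at least 15 WT reads, against the distance downstream of each gene's start or, for Eed, of the middle of its densest 2 kb (kb). The solid line is 1 and the dotted line 0.2; the 10 CpGs below it (red) are all in Kdm2b, and CpGs without a read are drawn at 0.015.

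The partners of the 4 proteins were read from lists of genes at their own promoters, of which 8649 of 26794 could be placed by sequence, plus Ezh2. Of the complex that KDM2B forms, 2 of 6 promoters tested were called higher in Fbxl10 T/T, where 16.2% of all promoters tested were: the upstream Kdm2b promoter and that of Bcor, the corepressor of the complex, which went from 1.21% (7 of 578 reads) to 63.9% (152 of 238). In canonical PRC1 it was 1 of 6: Cbx7, the main chromobox protein of embryonic stem cells, went from 1.70% (18 of 1060) to 71.4% (391 of 548). In PRC2 it was 1 of 8: Phf19, an accessory subunit that binds H3 methylated at lysine 36, went from 3.97% (87 of 2194) to 60.2% (743 of 1235). None was called of 7 promoters of the other variant PRC1 complexes or of 11 of CXXC proteins and DNA methylation enzymes. The median differences of these 5 lists were 0.05, 0.24, -0.09, 0 and 0.10 points, and that of all promoters 0.07. Most promoters of the machinery were therefore as low in Fbxl10 T/T as in WT, and the counts called in these lists are too small to set apart from the share of all promoters.

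Developmental genes bound by Polycomb were the contrast. Of that list, 7 of the 7 promoters tested were called higher in Fbxl10 T/T, against 16.2% of all promoters, with a median difference of 53.2 points. They cover 6 of the 15 genes of the list, those whose promoters could be placed, and the list was chosen with earlier results of these data known. They belong to Hoxd13 (5.53% to 28.8%), Lhx2 (3.87% to 57.1%), Otx2 (5.91% to 80.5%), Pax2 with a pair of starts (2.83% to 31.8% and 1.13% to 35.1%), Pax6 (4.91% to 60.1%) and Sim1 (4.83% to 62.9%), all transcription factors of the embryo. The upstream Kdm2b promoter, at 24.4%, lay below each of them, a difference that was not tested. The regions of the Pax2 starts overlap, so the 7 promoters are not all separate stretches. Among markers of embryonic stem cells 1 of 3 promoters tested was called, that of Sox2, which went from 2.40% to 48.3%, and no promoter of the 5 fibroblast markers could be tested.

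In the Polycomb mutants a single listed promoter was called, that of Cbx7 in Eed -/-, with 7 of 32 reads methylated (21.9%) where WT had 1.83% (13 of 710), an adjusted p of 2.57e-04 in Fisher's exact test, and 0.203% of promoters called higher and 0.24% lower in that comparison. Its difference of 20.04 points (9.12 to 36.9) is at the line. No other listed promoter was called in Ring1B -/-, Eed -/- or Ezh2 -/-.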

How the data were processed

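Reduced representation bisulfite sequencing of mouse embryonic stem cells gave 5 tables, 1 library for each genotype. BSMAP 2.74 and build mm9 are named in the submitters' processing notes; trimming and depth filters are not given in the sources used here. Per the file headers, the deposited tables give for each cytosine raw counts: reads with C, and reads with C or T. The deposited expected counts are such reads after the authors' scaling for variants that turn C into T, and the deposited fraction is their ratio per the file headers. CpGs are listed on the plus strand only.

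Levels were computed from the raw counts on 19 autosomes and the X chromosome, at CpGs outside CCGG with at least 1 read in both libraries. Promoters reach 1000 bases either side of a start. Windows and promoters needed 5 CpGs and 30 reads in each library and were called at 20 points with an adjusted p under 0.05. Single CpGs needed 10 reads and 25 points. Fisher's exact test (two-sided, Benjamini-Hochberg over all features tested) compares the reads of 2 libraries, not genotypes. The calls were also tried on simulated windows, with reads drawn apart for each CpG and no spread between cultures. The raised windows were drawn from those at 50% or less in WT. Of windows raised by 20 points 48% to 54% were called higher, and of those raised by 10 points 0% to 2%. The call itself needs 20 points, so these shares follow largely from that rule. Of windows raised by 30 points 94% to 100% were called higher, and of those raised by 50 points 100%. The simulation cannot show what shared reads or differences between cultures do to the test. Elsewhere in the genome a promoter was placed from at least 40 spelled letters with at most 1% mismatched, and the 4 genes from at least 20. Members and lists were chosen with earlier results of these data known. All called windows of the 4 genes are named, and of the called single CpGs the 3 largest rises and the 2 falls, beside others near them chosen after their values were seen; of listed genes, those with a called promoter. Alternatives varied the CCGG rule (also without CpGs within 5 bases of CCGG), read and CpG minimums, window and promoter sizes, the call difference and the depth scaling. Python 3.11.15, SciPy 1.17.1 and Numba 0.67.0 were used.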

Additional observations from a re-analysis of the deposited data

How the results depend on the processing

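No paired analysis was possible because each genotype has 1 library. The same 2 Kdm2b windows were called higher in Fbxl10 T/T under every alternative tried with windows of 1000 bases except one, and 2 were called with windows of 500 and of 2000 bases. Without CpGs within 5 bases of CCGG 1 remained, at chr5:123438001-123439000. Keeping CpGs inside CCGG added chr5:123402001-123403000, and 1 window was then called lower in Ring1B -/-, at chr5:123330001-123331000 in Kdm2b (73.7% in WT, 48.7%). A line of 10 points called the window at chr5:123330001-123331000 too (17.6 points). Counts of single CpGs called higher in Fbxl10 T/T ran from 10 to 22, and those called lower from 2 to 3.

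Several differences from WT in level moved out of their counting interval. Keeping CpGs inside CCGG, the Ezh2 promoter differed by -1.33 points in Fbxl10 T/T, 7.36 in Ring1B -/- and 3.27 in Eed -/-. With at least 5 reads per CpG, the upstream Kdm2b promoter differed by -2.82 points in Ezh2 -/-, the internal one by -2.30 in Eed -/-, the rest of Kdm2b by -50.3 in Ezh2 -/- and the Eed island by 0 in Eed -/-. Within 500 bases of the start, the upstream Kdm2b promoter differed by 3.38 points in Fbxl10 T/T and -3.10 in Eed -/-, and the rest of Kdm2b, which then takes in more of the islands, by -9.71 in Ezh2 -/-. Without CpGs within 5 bases of CCGG the Eed island in Ring1B -/- reversed to -0.29 points, its 1 methylated read being left out. Without the fragment with most methylated WT reads, the Rnf2 promoter differed by 0.12 points in Ezh2 -/-. As a share of the same chromosome's reads, depth over WT was 0.964 (Kdm2b), 0.956 (Rnf2), 1.02 (Eed) and 1.08 (Ezh2) in Fbxl10 T/T, 1.06 for Ezh2 in Eed -/- and 1.34 for Rnf2 in Ezh2 -/-. Without CCGG it was 0.608 for Kdm2b in Ezh2 -/-. Where no construction is named, the cause was not tested. The alternatives near CCGG, by chromosome and by fragment were chosen after seeing the data. Depth left 5, 6 and 4 windows of the 4 loci to test in Ring1B -/-, Eed -/- and Ezh2 -/-, against 12 in Fbxl10 T/T.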
